A study of Arabidopsis thaliana with 4 samples.

Results

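In Arabidopsis seedlings, 820 of 6605 poly(A) sites had highly reactive nucleotides at the position of 3′ end cleavage in vivo. The sites belonged to 718 of the 3338 genes with a poly(A) site in the in vivo table. A site was chosen when the 6 nucleotides from −4 to +1, counted from the poly(A) site as position 0, had a mean SHAPE reactivity of at least 1.1 in vivo. These are nucleotides 47 to 52 of a window of 100 nt with the poly(A) site at nucleotide 51. The remaining 5785 sites are called the other sites. The rule thus took 12.4% of all sites, a share that follows from the threshold alone.

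The study probed nuclear RNA of Col-0 seedlings, 5 days old, with NAI at 100 mM for 15 min at 22 °C. For the in vivo condition the seedlings themselves were treated, whereas for the deproteinized condition the reagent was added to nuclear RNA after the proteins had been removed. Each of the 2 conditions had 1 (+)SHAPE library entry and 1 (−)SHAPE library entry, the second without NAI. In all, 4 samples were given. For the in vivo control the paper names DMSO in place of NAI. The replicates of a condition had been merged into 1 profile before deposition, whole seedlings mix many cell types, and no error between plants or libraries can be given: each n below counts poly(A) sites.

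A eukaryotic mRNA gets its 3′ end when the precursor is cut by the endonuclease subunit CPSF73 of the cleavage and polyadenylation specificity factor and a poly(A) tail is added to the new end. In animals the hexamer AAUAAA upstream of the cut is bound by the subunits CPSF30 and WDR33; plants have homologous subunits, but their upstream A-rich signals deviate far more from the hexamer. NAI acylates the 2′-hydroxyl of flexible, mostly unpaired nucleotides, and reverse transcriptase stops beside the adduct. A high SHAPE reactivity thus marks a nucleotide that is open to the reagent.

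The 30 nucleotides from −28 to +1 of 8 sites illustrate the range of sequences behind a high reactivity. They are the 4 sites with the highest in vivo mean and, among sites with a value in both conditions, the 2 that were highest and the 2 that were lowest after deproteinization. Each is the sense strand written as DNA (RefSeq genome, TAIR10.1), with the 6 nucleotides at −4 to +1 in capitals and the 12 nucleotides of the upstream region, −28 to −17, at the left end.
UBQ10, polyubiquitin, chr4:2720105-2720134, plus strand: cgtttttattatctgtgcttctttTGTTTA
AT1G61740, sulfite exporter family protein, chr1:22798169-22798198, minus strand: ttatgttctggacctaaattcagaTTTCAA
AT5G26830, threonyl-tRNA synthetase, chr5:9441723-9441752, plus strand: ttggtccccttttagtatcattttATGGAA
CIB22, LYR family protein, chr4:16558713-16558742, plus strand: gatgttcgaccatgaaaacttgtcAGTAAA
CEST, highest after deproteinization, chr5:18015357-18015386, plus strand: taagaacatgaaatgagtttttcaATTATT
PIN7, auxin efflux carrier, chr1:8180546-8180575, minus strand: aggtgatggaatgagagagacaagAGGACC
RIN2, RPM1 interacting protein, chr4:12929056-12929085, plus strand: taaatgaaagagtctactgttattGATCCA
CIPK3, CBL-interacting protein kinase, chr2:11515035-11515064, minus strand: tataaagtcatatcaaagcttgttGGCTAA

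The capitals differ from site to site. Of the 12 sites with the highest in vivo mean, 10 carried A at +1 and 8 had no C between −4 and +1. Of all highly reactive sites, 67.7% carried A at +1 and 39.8% had no C, against 57.5% and 24.5% of the other sites. Among the printed sites, AT1G61740, PIN7, RIN2 and CIPK3 hold C in the capitals.

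The SHAPE reactivity is a score without physical unit that runs from 0 to 2 within each window. In vivo the highly reactive sites averaged 1.25 ± 0.131 at −4 to +1 (SD, n = 820), with quartiles of 1.15 and 1.32, and the other sites averaged 0.733 ± 0.194 (SD, n = 5785). These values chose the sites and are given as a description only. The site nearest above the threshold was that of PTAC4 at 1.10022, followed by TLP10 at 1.1004 and UBC19 at 1.10059. Nearest below it were AT3G62840 at 1.09972, AT5G61820 at 1.09956 and 1 site of UBL5 at 1.09943, so the threshold cuts a continuous range.

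Most of the high means included 1 or more nucleotides at the top of the scale. Of the 820 sites, 139 had no nucleotide at the highest score of 2, 364 had 1, 242 had 2, 66 had 3, 8 had 4 and 1 had 5. A nucleotide at 0 stood among the 6 at 13.5% of the highly reactive sites and at 31.05% of the other sites. Scores of 0 and 2 enter the mean that chose the sites, so these counts are a description only. Along the region, the highly reactive sites averaged 1.141 at −4, 1.18 at −3, 1.25 at −2, 1.33 at −1, 1.33 at 0 and 1.29 at +1. The region was the single most reactive run of 6 nucleotides of its window at 73 of the 820 sites, or 8.90%.

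**Figure D1:**
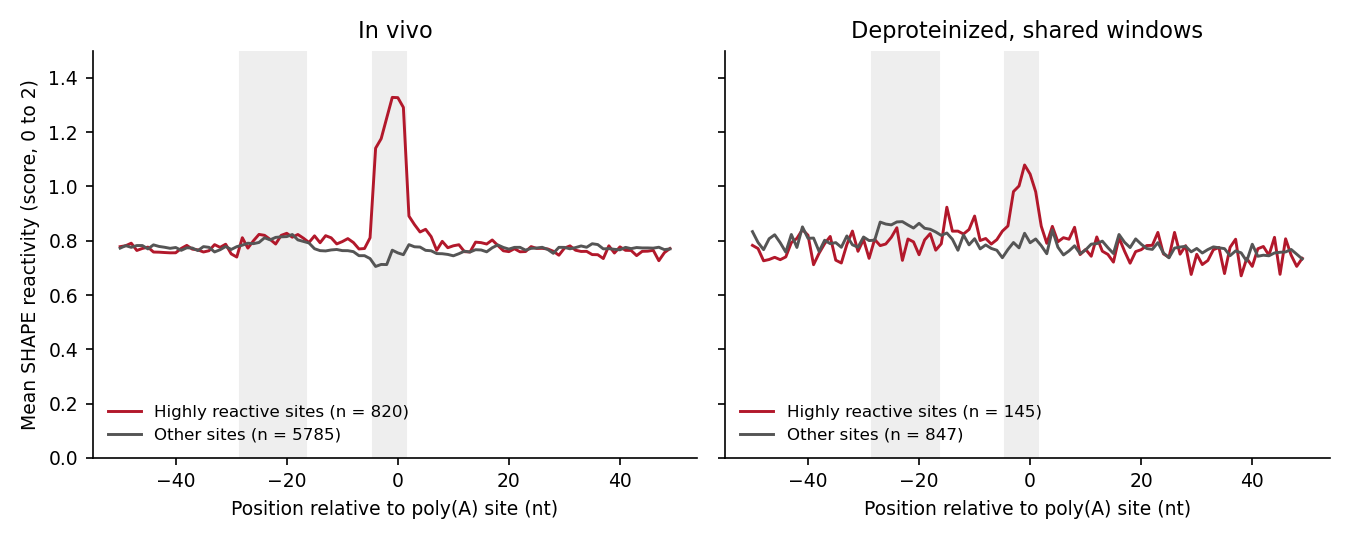
Mean SHAPE reactivity (score, 0 to 2) at each position around the poly(A) site, in vivo (left) and after deproteinization (right), for the highly reactive sites (red) and the other sites (grey), with −4 to +1 and −28 to −17 shaded. In vivo the red line averages 1.25 over −4 to +1, which the choice of sites fixes, and after deproteinization it averages 0.990, against 0.794 for the grey line.

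UBQ10, one of the polyubiquitin genes whose products are cut into ubiquitin, had the highest mean of the table at 1.84. Its 6 nucleotides from −4 to +1 scored 2, 1.03, 2, 2, 2 and 2 in vivo. AT1G61740 followed with a mean of 1.83 and scores of 2, 2, 1.52, 2, 1.44 and 1.99. AT5G26830, a threonyl-tRNA synthetase that charges tRNA for translation, averaged 1.79, and CIB22 averaged 1.76. AT3G26510, AT2G46600 (an EF-hand calcium-binding protein) and AT3G52220 had means of 1.75, 1.70 and 1.69. The list of 12 closed with NEK2 (a NIMA-related kinase) at 1.67, AT4G27652 at 1.66, SR30 (a serine/arginine-rich splicing factor) at 1.64, AT4G28080 at 1.64 and ALDH7B4 (an aldehyde dehydrogenase) at 1.62. Of these 12 genes, 3 had a single listed site, a share close to the 27.4% of all highly reactive sites and 27.8% of the other sites that lay in such genes. The other 2 sites of UBQ10 had means of 0.434 and 0.540, whereas CIB22 and ALDH7B4 each had 1 more highly reactive site, at 1.18 and 1.102.

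The upstream region from −28 to −17 had nearly equal means in both sets in vivo. It averaged 0.809 ± 0.202 at the highly reactive sites (SD, n = 820) and 0.803 ± 0.202 at the other sites (SD, n = 5785). A mean of 1.1 or more in this region was found at 65 of the 820 highly reactive sites (7.93%), against 474 of the 5785 other sites (8.19%) and 8.16% of all sites. Upstream reactivity was above the mean of the 82 nucleotides outside both regions at 54.3% of the highly reactive sites and at 52.4% of the other sites. Among the 820 sites, the 2 regional means had a correlation of −0.043, which describes nucleotides of the same window and the same scaling.

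Upstream means of single sites varied widely. The lowest value belonged to ACT2, an actin gene: its site averaged 0.0267 at −28 to −17 in vivo and 1.49 at −4 to +1, with scores of 0.00435, 0.919, 2, 2, 2 and 2. The contrast was present after deproteinization as well, at 0.0583 upstream and 1.30 at −4 to +1. The highest upstream mean among the 820 was 1.54. In UBQ10 the upstream region averaged 0.505 in vivo and 0.858 after deproteinization.

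Of the 820 sites, 145 (17.7%), from 128 genes, also had a window in the deproteinized table, which holds 1068 sites. The same held for 847 of the 5785 other sites (14.6%). The deproteinized values took no part in the choice of sites. At −4 to +1 they averaged 0.990 ± 0.293 at the highly reactive sites (SD, n = 145) and 0.794 ± 0.253 at the other sites (SD, n = 847). The spread of the sets overlapped widely: values ran from 0.272 over a median of 0.989 to 1.81 at the highly reactive sites, and from 0.161 over a median of 0.782 to 1.52 at the other sites. The difference of means was 0.197, and no replicate error is available against which to test it.

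The threshold of 1.1 was reached again after deproteinization at 50 of the 145 highly reactive sites, or 34.5% (95% Wilson interval 27.2 to 42.5%). Among the other sites it was reached at 106 of 847, or 12.5% (10.5 to 14.9%). The share over all 992 sites with both windows was 15.7%. The intervals cover counting error only and are too narrow where sites of a gene share nucleotides. Means below 0.5 were found at 6 of the 145 highly reactive sites and at 98 of the 847 other sites.

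**Figure D2:**
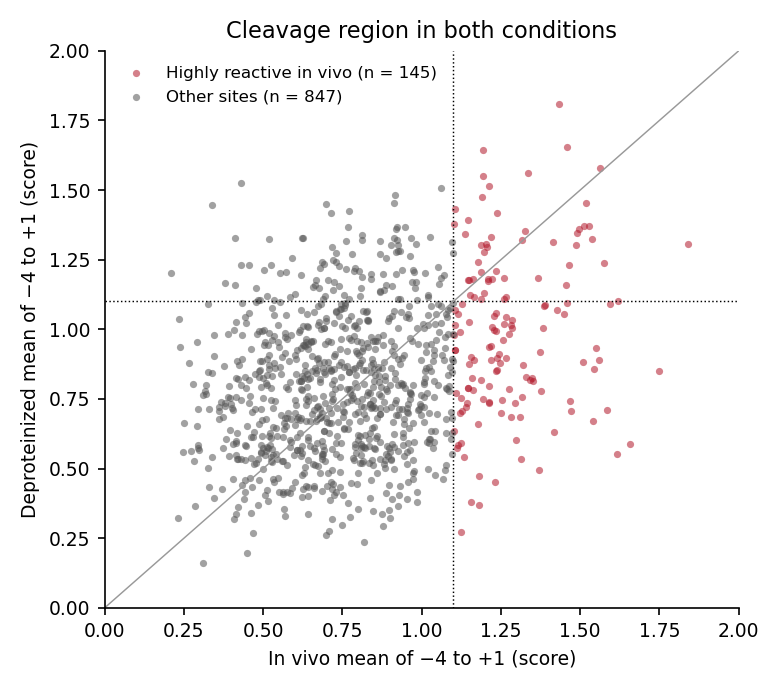
Mean SHAPE reactivity of −4 to +1 (score) in vivo (x axis) and after deproteinization (y axis) at each of the 992 poly(A) sites with both windows, with highly reactive sites in red, other sites in grey, dotted lines at 1.1 and a line of equal values. Of the 145 red points, 50 lie on or above the horizontal dotted line and 120 lie below the line of equal values.

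In vivo means were above deproteinized means at 120 of the 145 highly reactive sites (82.8%) and at 355 of the 847 other sites (41.9%). The in vivo minus deproteinized difference averaged 0.294 ± 0.310 at the highly reactive sites and −0.0705 ± 0.300 at the other sites (SD over sites). The sites were picked for high in vivo values, which by itself favours a lower value in any second profile, so the size of this difference is not read as an effect of protein. Over the 992 sites, the in vivo and deproteinized means had a correlation of 0.291 at −4 to +1 and of 0.407 at −28 to −17. Both are descriptions across sites that share genes and overlapping windows. Within a window, the correlation of the 100 nucleotides between conditions had a median of 0.156 for the highly reactive sites and 0.162 for the other sites.

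Within the deproteinized window itself, which needs no in vivo value, the cleavage region was above the upstream region at 64.8% of the highly reactive sites and 40.97% of the other sites. It exceeded the mean of the remaining 82 nucleotides at 72.4% of the highly reactive sites and 48.996% of the other sites. It was more reactive than over 90% of the runs of 6 nucleotides in the window at 47 of the 145 highly reactive sites, or 32.4%, and at 92 of the 847 other sites, or 10.9%. The higher deproteinized level also extended beyond the cleavage region: the mean of the highly reactive sites was above that of the other sites at each position from −15 to −5 and from +2 to +8, for example 0.835 at the highly reactive sites and 0.737 at the other sites at −5. In the upstream region the order was the opposite, with averages of 0.792 ± 0.211 at the highly reactive sites and 0.852 ± 0.208 at the other sites, a difference of −0.0594 that shrank to −0.0233 with a threshold of 1.0 for the choice of sites and to −0.0396 with the recurring score as missing. The 82 nucleotides outside both regions averaged 0.775 at the highly reactive sites and 0.780 at the other sites, which combines positions of both directions. In vivo, the upstream region of the same windows averaged 0.801 at the highly reactive sites and 0.833 at the other sites.

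By position, the deproteinized means of the highly reactive sites were 0.854 at −4, 0.981 at −3, 1.00 at −2, 1.08 at −1, 1.05 at 0 and 0.980 at +1. At the other sites they lay between 0.768 and 0.828. All 6 positions were thus higher in the highly reactive set.

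**Figure D3:**
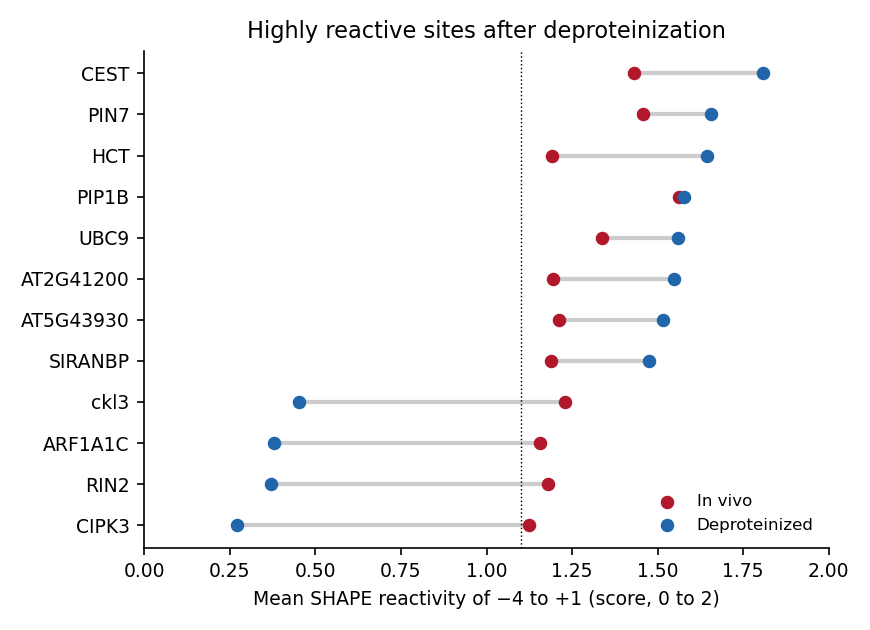
Mean SHAPE reactivity of −4 to +1 (score, 0 to 2) in vivo (red) and after deproteinization (blue) at the 8 highly reactive sites that were highest and the 4 that were lowest after deproteinization, with a dotted line at 1.1. The 8 sites run from 1.47 to 1.81 after deproteinization and the 4 sites from 0.272 to 0.452, while in vivo all 12 lie above the line.

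CEST had the highest deproteinized mean of the 145 sites, 1.81, with 1.43 in vivo. Its 6 nucleotides scored 2, 0.680, 0, 1.91, 2 and 2 in vivo and 1.74, 1.43, 1.76, 2, 2 and 1.92 after deproteinization. The nucleotide at −2 thus scored 0 in vivo and 1.76 after deproteinization. An effect of protein on it was not tested, as the site was picked for its deproteinized mean and has no replicate. PIN7, which carries auxin out of the cell, averaged 1.46 in vivo and 1.65 after deproteinization. HCT, an enzyme of lignin biosynthesis, averaged 1.19 in vivo and 1.64 after deproteinization. The aquaporin gene PIP1B had nearly equal means of 1.56 in vivo and 1.58 after deproteinization. UBC9, an E2 enzyme that hands ubiquitin to its targets, averaged 1.34 in vivo and 1.56 after deproteinization. The set closed with AT2G41200 at 1.19 in vivo and 1.55 after deproteinization, AT5G43930 at 1.21 in vivo and 1.51 after deproteinization, and SIRANBP at 1.19 in vivo and 1.47 after deproteinization.

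At the other end, CIPK3, a kinase that works with calcineurin B-like calcium sensors, averaged 1.12 in vivo and 0.272 after deproteinization. Its deproteinized scores were 0.0111, 0.00470, 0.151, 0, 1.24 and 0.225 from −4 to +1. RIN2, a RING-type ubiquitin ligase, averaged 1.18 in vivo and 0.370 after deproteinization. ARF1A1C, a small GTPase of vesicle traffic, averaged 1.16 in vivo and 0.380 after deproteinization. For ckl3, a casein kinase I-like protein, the means were 1.23 in vivo and 0.452 after deproteinization. Sites of a single gene could part: the site of ARF1A1C above lies at position 19368721, and its highly reactive sites at 19368736 and 19368756 averaged 1.18 and 1.21 after deproteinization. Among the sites with the very highest in vivo means, UBQ10 had 1.31, ALDH7B4 1.103, AT3G26510 0.852 and AT4G27652 0.588 after deproteinization. A high rank in vivo did not fix the deproteinized value.

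The 50 sites that reached 1.1 in both conditions, a split made after the values were seen, came from 47 genes and had a median of 1.23 in vivo and 1.30 after deproteinization. The remaining 95 sites, from 88 genes, had an in vivo median of 1.24 and a deproteinized median of 0.831. In vivo levels therefore hardly differed between these subsets. At −4 to +1, C made up 11.7% of the nucleotides in the subset of 50 and 13.3% in the subset of 95.

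The nucleotides at −4 to +1 differed between the sets. C made up 13.6% of them at the highly reactive sites and 20.5% at the other sites, whereas A made up 31.7% at the highly reactive sites and 26.7% at the other sites. U made up 40.3% at the highly reactive sites and 37.98% at the other sites, and G 14.3% at the highly reactive sites and 14.8% at the other sites. The gap for C was widest at −1, with C at 16.8% of the highly reactive sites and 27.8% of the other sites. A stood at +1 in 67.7% of the highly reactive sites and 57.5% of the other sites. No C at all occurred from −4 to +1 at 39.8% of the highly reactive sites (36.5 to 43.1%) and at 24.5% of the other sites (23.4 to 25.7%). Hexamers of A and U alone, as in the site of AT3G26510 (TTTATT) or CEST (ATTATT), were found at 7.44% of the highly reactive sites and 3.36% of the other sites.

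**Figure D4:**
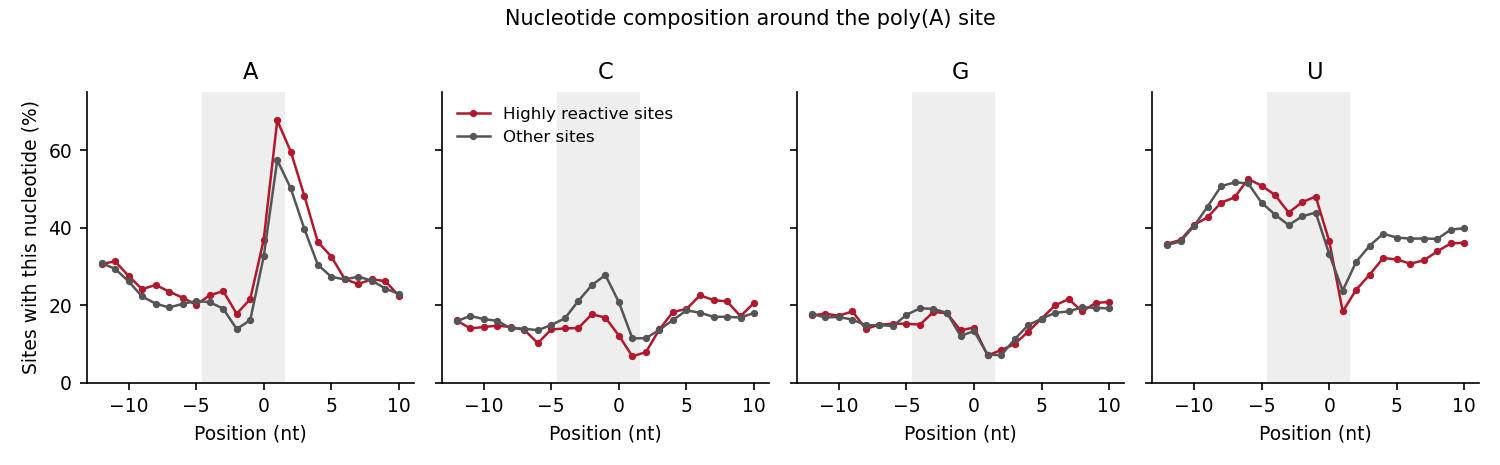
Share of poly(A) sites (%) with A, C, G or U at each position from −12 to +10 around the poly(A) site, for the highly reactive sites (red) and the other sites (grey), with −4 to +1 shaded. C is less frequent at the highly reactive sites in the shaded region (16.8% and 27.8% at −1), and A is more frequent at +1 (67.7% and 57.5%).

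Pooled over windows, reactivity differed by base, and the rule took no account of the base. Over every nucleotide of all windows with a sequence, the in vivo mean was 0.831 for A, 0.782 for U, 0.748 for G and 0.688 for C. After deproteinization, in the windows with both conditions, U was highest at 0.819, followed by A at 0.805, G at 0.761 and C at 0.719. When the cleavage region was split by base, the deproteinized means of the highly reactive sites were higher for each base. For A, C, G and U they were 0.953, 0.933, 0.986 and 1.04 at the highly reactive sites, against 0.813, 0.729, 0.786 and 0.819 at the other sites. The part of base composition in the choice of sites was not tested further.

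The poly(A) signal AATAAA, searched on the sense strand between −40 and −10, was found upstream of 61 of the 820 highly reactive sites, or 7.44% (5.83 to 9.44%). Of the other sites, 6.91% (6.28 to 7.59%) had it. AATAAA or a variant with 1 changed base was found at 38.2% of the highly reactive sites and 39.5% of the other sites. Among the 12 sites with the highest in vivo mean, only AT1G61740 had the exact hexamer, starting at −36, upstream of the stretch printed above. A CA or UA pair with its A at 0 or +1, the common cleavage dinucleotide, was present at 63.4% of the highly reactive sites and 59.7% of the other sites.

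Folded from sequence alone, the nucleotides at −4 to +1 had a mean probability of being unpaired of 0.540 ± 0.235 at the highly reactive sites (SD, n = 820) and 0.492 ± 0.235 at the other sites (SD, n = 5778). Over the 82 nucleotides outside both regions, the means were 0.509 at the highly reactive sites and 0.517 at the other sites, in the opposite order.

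By annotation, 790 of the 820 highly reactive sites (96.3%) lay in a 3′ UTR, and the other 30 lay downstream of the annotated gene end, at a median of 11 nt past it. For the other sites the share in a 3′ UTR was 95.2%. The plus strand held 49.6% of the highly reactive sites and 51.8% of the other sites. Chromosomes 1 to 5 held 27.2%, 14.1%, 18.9%, 18.05% and 21.7% of the highly reactive sites, against 26.98%, 13.6%, 20.2%, 14.6% and 24.5% of the other sites.

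The share of highly reactive sites differed little with the number of sites of a gene. In the order of the table, the first 3084 sites come from different genes, and genes recur from there on. The first 3084 were taken as the constitutive sites by this order alone, since no label in the table marks them. The paper lists alternative poly(A) sites separately, and its number of poly(A) sites in vivo is slightly below 3084. Those lists were not used here, so the split is approximate. Some later sites, such as that of LHCA4, are the only listed site of their gene. Highly reactive were 399 of these 3084 sites, or 12.9% (11.8 to 14.2%), and 421 of the 3521 later, alternative sites, or 11.96% (10.9 to 13.1%). Their in vivo means were 1.25 ± 0.127 among the constitutive and 1.26 ± 0.134 among the alternative highly reactive sites. Of the sites in genes with a single listed site, 12.3% were highly reactive, compared with 13.3% in genes with 2 sites, 11.9% with 3 to 4 and 12.5% with 5 or more. Across 10 equal stretches of the table order the share ran from 8.79% to 15.0%, with no steady trend. The lowest was stretch 2 (6.86 to 11.2%) and the highest stretch 1 (12.5 to 17.9%). These intervals do not overlap, but the 2 stretches were picked as the extremes of 10.

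Of the 718 genes, 633 had 1 highly reactive site, 70 had 2, 13 had 3 and 2 had 4. In 225 genes the only listed site was highly reactive. Among the 493 genes with several listed sites, all were highly reactive in 16 and only some in 477. Sites less than 25 nt apart formed 50 clusters with several highly reactive sites, 106 sites in all, so these share part of their nucleotides. Where windows of a gene overlapped, the shared nucleotides had much the same profile, with a median correlation of 0.997 (lowest 0.327) over 1064 pairs of windows with sites up to 50 nt apart.

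**Figure D5:**
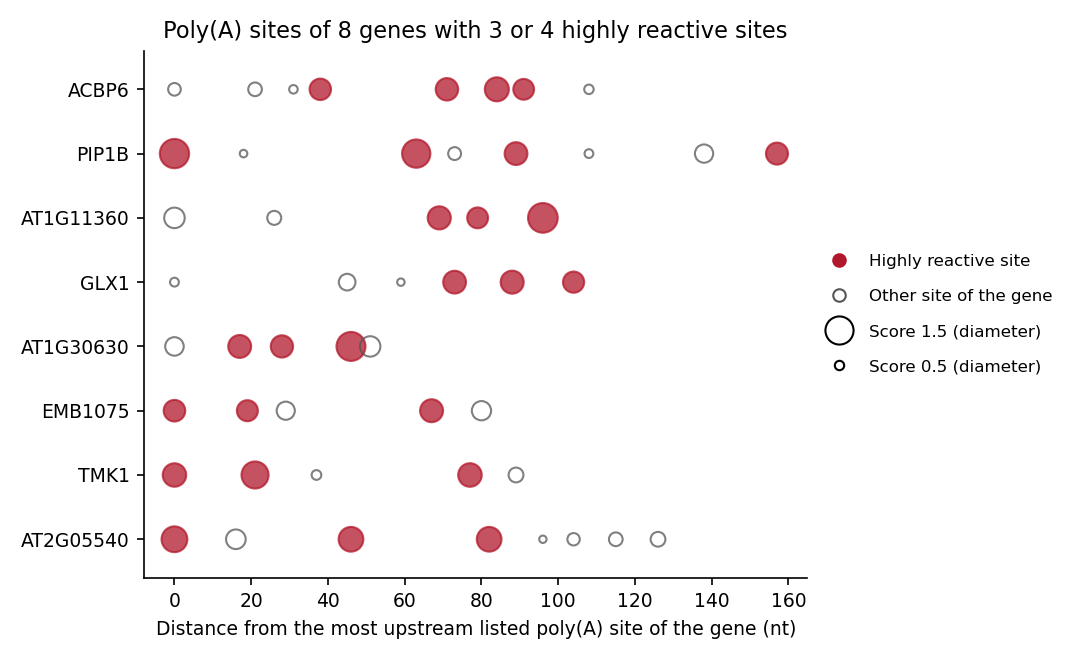
Listed poly(A) sites of the 2 genes with 4 highly reactive sites and of 6 of the 13 genes with 3, taken in order of identifier, by distance from the most upstream listed site (nt), with filled red circles for highly reactive sites, open grey circles for other sites and circle diameter in proportion to the in vivo mean of −4 to +1 (score). In PIP1B, 4 highly reactive sites from 1.18 to 1.56 lie among 4 other sites from 0.404 to 0.974.

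ACBP6 and PIP1B had 4 highly reactive sites each. In ACBP6, a cytosolic acyl-CoA-binding protein, these averaged 1.11, 1.28, 1.198 and 1.144 in vivo, against 0.456 to 0.729 at its other 4 sites, and all 8 lay within 108 nt. In PIP1B the 4 highly reactive sites averaged 1.56, 1.51, 1.22 and 1.18, against 0.404 to 0.974 at the other 4, within 157 nt. After deproteinization, 3 of the 4 PIP1B sites had values: 1.58, 0.884 and 0.661. The site of PIP1B at position 18911899, only 10 nt downstream of a highly reactive site, averaged 0.687 in vivo.

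Of the genes with 3 highly reactive sites, TMK1, a receptor-like transmembrane kinase, had means of 1.25, 1.45 and 1.26 in vivo, against 0.518 and 0.791 at its other 2 sites. GLX1, a glyoxalase, had 1.13, 1.23 and 1.22, against 0.396 to 0.888 at its other 3. In AT1G30630, the epsilon subunit of the coatomer that coats Golgi vesicles, the 3 highly reactive sites (1.22, 1.19 and 1.55) and the other 2 (0.987 and 1.09) lay within 51 nt, and all 5 had means of at least 0.987. EMB1075 was similar, with highly reactive sites at 1.15, 1.12 and 1.22 and other sites at 0.968 and 1.03. LHCB4.1, an antenna protein of photosystem II, had 3 highly reactive sites among 12, and the remaining 9 lay between 0.501 and 0.907. ACT2 had 1 at 1.49 among 12, and the other 11 lay between 0.243 and 0.925.

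Highly reactive sites were spread over genes of many functions. Genes were grouped by words in their product names, with groups chosen when results of these data were known. Against 12.4% over all sites, the share of highly reactive sites was 16.4% in membrane transport (36 of 219 sites), 15.1% in ribosomal proteins (31 of 205), 12.5% in transcription factors (32 of 256) and 12.2% in kinases (47 of 384). It was 11.8% in cell wall genes, 11.5% in light harvesting and photosystems, 11.5% in Rubisco and the Calvin cycle, 10.9% in RNA binding, 9.09% in histones, 9.09% in the cytoskeleton, 8.74% in ubiquitin and proteasome, 8.62% in heat shock and chaperones, and 8.33% in translation factors. The counts of the smaller groups rest on few sites, such as 3 of 26 for Rubisco and the Calvin cycle and 2 of 22 for histones. Of those 2, HTB4 is a histone, and AT3G07565, named in the annotation as a histone H2A deubiquitinase, was taken in through the word in its product name. Other groups are mixed in the same way. RSZ21, an RS-containing zinc finger protein, was counted with the transcription factors, and HSF4, a heat shock factor, with heat shock and chaperones.

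Ribosomal protein genes were led by AT3G26360, of the S21 family, at 1.58 in vivo, followed by EMB2296 (L2 family) at 1.48, AT1G77940 at 1.44 and RPS18C at 1.39. Among translation factors, LOS1, which encodes elongation factor 2, had 1.28 and ELF5A-3 had 1.22. Among the photosynthesis genes were LHCA4, an antenna protein of photosystem I, at 1.33, RPE, an epimerase of the Calvin cycle, at 1.30, and RBCS1A, the small subunit of Rubisco, at 1.18. None of the highly reactive sites of these photosynthesis groups had a deproteinized window.

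In membrane transport, PIP1B (1.56) was followed by ABCG22, an ABC transporter, at 1.55, PIP1C, an aquaporin, at 1.53 and CLC-A, a nitrate transporter of the vacuole membrane, at 1.53. CLC-A had 1.37 after deproteinization. The intrinsic proteins of the aquaporin family, singled out after the values were seen, had 10 highly reactive sites among 51, in 5 of 12 genes (PIP1B, PIP1C, PIP2E, PIP3 and SIP1A), beside 12.4% of all sites and 718 of all 3338 genes. Among the kinases, NEK2 at 1.67 was followed by ckl4 at 1.59, CKL2 at 1.58 and CKL13 at 1.51, all casein kinase I-like. With ckl3, 4 of the 7 genes of this family had a highly reactive site, 4 of its 14 sites in all, beside the same 12.4% of all sites and 718 of 3338 genes. This family too was noted after the values were seen. After deproteinization, ckl4 had 1.09, CKL2 had 0.712 and ckl3 had 0.452, so the 3 measured members spread from just under the threshold to near the lowest of the 145 values.

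Other named sites included STO, a B-box zinc finger protein, at 1.54, AtHB23, a homeobox protein, at 1.53, CP29, a chloroplast RNA-binding protein, at 1.48, and ADF3, which depolymerizes actin filaments, at 1.46. AGP15, an arabinogalactan protein of the cell wall, had 1.46 in vivo and 1.23 after deproteinization. BIP1, an Hsp70 chaperone of the endoplasmic reticulum, had 1.35, HSP81-2, an Hsp90 chaperone, 1.24, and HTB4, a histone H2B, 1.22. HTB4 had 0.890 after deproteinization. The 145 sites with both values were too unevenly spread over the groups (8 in kinases, 8 in membrane transport, 7 in transcription factors and 1 in ribosomal proteins) to compare the groups after deproteinization.

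Read depth per nucleotide was not in the tables. Within a window, 1 score recurs at many nucleotides, with a median of 24 nucleotides per window at the highly reactive sites and 26 at the other sites. At least 1 nucleotide of −4 to +1 had this recurring score at 39.3% of the highly reactive sites and 67.3% of the other sites. These scores enter the mean that chose the sites, so this contrast is given as a description only. The part of the recurring score in the results was not tested beyond treating it as missing.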

How the data were processed

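Poly(A) windows of 2 conditions were analysed. The deposited reactivities are scores from 0 to 2 that the authors calculated from merged replicates: reads were checked and trimmed (FastQC 0.11.5 and cutadapt 1.14 in the submitters' processing notes), mapped with HISAT2 2.1.0 to TAIR10, and RT-stops were counted and normalized, with at least 1 RT-stop per nucleotide required. According to the paper, only uniquely mapped reads were kept. For poly(A) sites, RT-stops came only from reads across the site or downstream of it, so as to describe pre-mRNA before polyadenylation. The formula of the score is not given in the sources used here. The deposited splicing tables were not used.

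The sites and lists were chosen with earlier results of these data known. Windows ran 5′ to 3′ on both strands and were matched between conditions by gene and coordinates. Sequences and annotation came from TAIR10.1, whose coordinates are those of TAIR10, and 7 sites without an annotated strand were left out of sequence results. Windows were folded with ViennaRNA 2.7.2 at 37 °C without reactivities. With 1 profile per condition no test between conditions was made: values are means ± SD over sites and shares with 95% Wilson intervals. Depth is unknown from the tables.

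Named were the 12 highest sites in vivo, the 8 highest and 4 lowest after deproteinization, 8 genes with most highly reactive sites (2 with 4 and, by order of identifier, 6 of the 13 tied at 3), up to 4 sites per gene group and the 3 sites on each side of the threshold. Alternatives were the threshold, site position, missing scores, medians, 1 site per gene or cluster, 1 strand, motif and folded length; those for base composition were added after the data were seen. Scripts were tested on simulated data. Python 3.11.15, NumPy 2.4.6, pandas 2.3.3 and Matplotlib 3.10.9 were used.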

Additional observations from a re-analysis of the deposited data

How the results depend on the processing

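Of 64 alternatives over 10 results, 51 stayed near the main value and 13 moved. Near meant within 1.5 times for a count, within the counting interval for a share and within the error over sites for a difference. A reversal could be counted only where the main difference exceeded its error. This left out counts, shares and the upstream difference in vivo, and 0 of the remaining differences turned round. Some of the 51 could not change: no score was missing, and the constitutive sites were already the first listed of their genes. The number of highly reactive sites, 820, was 1365 with a threshold of 1.0, 472 with 1.2, 1402 with the recurring score as missing, 422 with the first listed site of each gene and 546 with 1 site per cluster. The share among constitutive sites, 12.9%, was 22.0% with a threshold of 1.0 and 7.39% with 1.2. The share of highly reactive sites with AATAAA, 7.44%, was 2.68% between −28 and −17 and 38.2% with single-base variants. The other sites had 3.01% and 39.5% in these settings. With the first listed site of each gene it was 10.9% at the highly reactive sites, and the share at the other sites was not calculated. C at −4 to +1, 13.6%, was 14.7% with a threshold of 1.0 and 12.6% with 1.2, both added after the data were seen. The share that reached 1.1 after deproteinization, 34.5%, was 26.5% with a threshold of 1.0 in vivo. The deproteinized difference at −4 to +1, 0.197 in favour of the highly reactive sites, ranged from 0.150 (recurring score as missing) to 0.221. The upstream difference in vivo, 0.00633, was −0.000875 when each region was set against the rest of its window. A changed threshold, subset or motif sets the counts by construction; for the recurring score, AATAAA at the first listed sites, C and the share after deproteinization the cause was not tested. Sites were matched between conditions, but no paired analysis of replicates was possible because each condition is 1 merged profile. Depth is unknown, so precision per site cannot be given.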
